A study of Homo sapiens with 12 samples.

Results

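The genes examined were the 34 that encode the nuclear transport receptors and the factors that load, unload and recycle them. They were chosen by name and family and not by a cut on measured values, but with earlier results of these data known. They are 6 importin alpha genes, 11 genes of the importin beta family, 7 exportins, 5 mRNA export factors and 5 genes of the Ran cycle. The deposited table held 22379 genes, 13811 had a mean of at least 10 in the untreated libraries and were tested, and all 34 transport genes were among them.

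RNA was measured in 12 libraries, 2 replicates in each of 6 groups, all from the human osteosarcoma line U2OS. Cas9 was delivered with a guide against NUP93 (NUP93-KO), against EXOSC5 (EXOSC5-KO) or against no human target (NONT), and each of these 3 genotypes was left untreated or given 1 µM triptolide for 8 h. NUP93 is a scaffold protein of the nuclear pore and EXOSC5 a subunit of the RNA exosome. Triptolide binds the XPB helicase of TFIIH and stops initiation by RNA polymerase II. The knockouts were pools of transiently transfected, puromycin-selected cells and not clones. By the study's methods, the NUP93 and EXOSC5 pools were selected and expanded for a shorter time than the other pools listed, NONT among them. Where the sequenced NONT pool followed that longer schedule, which is not stated for the RNA libraries, this time and the genotype cannot be told apart.

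Proteins and RNAs too large to diffuse cross the nuclear pore on receptors that bind its FG-repeat lining. Importin alpha (KPNA genes) reads the classical import signal and hands its cargo to importin beta (KPNB1), while the IPO and TNPO proteins bind cargo directly. Exportins (XPO genes and CSE1L) carry cargo out together with RAN bound to GTP. RCC1 charges RAN with GTP in the nucleus, RANGAP1 and RANBP1 discharge it in the cytoplasm, and NUTF2 returns RAN to the nucleus. Bulk mRNA leaves without RAN: DDX39B and ALYREF mark the spliced mRNA and pass it to NXF1, which acts as a heterodimer with the small protein NXT1 or its paralog NXT2.

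Sequences are shown for NXT1, which fell deepest after triptolide, and for a member that rose as a share of the mRNA pool. The promoter stretches are the 120 bases before the RefSeq start (assembly GRCh38.p14, plus strand), at chr20:23350671-23350790 for NXT1 and chr1:201829037-201829156 for IPO9. Of the 6 genes with the largest shifts in either direction, these had a RefSeq start within 10 bases of the gene start in the annotation. Capitals mark CCAAT and GGGCGG, searched on both strands, where the other strand reads ATTGG and CCGCCC.
NXT1: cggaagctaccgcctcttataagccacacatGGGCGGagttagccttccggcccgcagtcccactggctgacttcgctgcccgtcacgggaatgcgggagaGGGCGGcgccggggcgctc
IPO9: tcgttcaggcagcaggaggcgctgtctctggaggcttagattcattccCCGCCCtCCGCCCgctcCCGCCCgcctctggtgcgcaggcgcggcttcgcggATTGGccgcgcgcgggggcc
In the 250 bases before the start, both promoters held 3 copies of GGGCGG, 1 copy of CCAAT and 0 copies of TATAAA. Of 35116 RefSeq promoters of that length, 42.6% held GGGCGG, 32.0% CCAAT and 10.7% TATAAA. RefSeq promoters were matched for 29 of the 34 genes, which had 40 promoters, and 62.5% of these held GGGCGG, 37.5% CCAAT and 17.5% TATAAA. The counts of these letters in NXT1 and IPO9 were thus the same.

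A second pair of sequences shows the AU-rich motif ATTTA, the core of elements known to shorten mRNA life, in the 3′ UTR of NXT1 and of RANBP1, which rose as a share of the pool. The windows lie at chr20:23354735-23354761 and chr22:20127295-20127323 on the plus strand of GRCh38, each inside the last exon. Capitals mark ATTTA in NXT1 and the longer TATTTAT in RANBP1.
NXT1: tctgacaaataATTTAataatacacat
RANBP1: gtggaaacactTATTTATagtcatcaaaa
In the canonical transcripts, ATTTA occurred in the 3′ UTR of 27 of the 34 members, against 74.0% of 12989 tested genes with such a transcript. TATTTAT occurred in 13 members, against 36.7% of these genes. NXT1 held 1 ATTTA and 0 TATTTAT, and RANBP1 held both, which overlap.

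Sequencing depth was about 8.60 M to 11.96 M reads (M being 1000000) per library, and the spike-in-normalized sum over genes ran from 4.90 M to 16.4 M. The 34 genes made up 0.637% to 0.820% of this sum. A pair of scales is used below. On the spike-in scale, as deposited, a value is meant to follow mRNA per cell, so fewer cells of a kind and less RNA per cell cannot be told apart. On the same-total scale each library was given the same gene sum, so a value is a share of the mRNA pool. The first untreated NONT replicate lay below the second by a median of 0.51 on the log2 scale, and 33 of the 34 members were lower in it. Treated NONT replicates differed the other way: the first lay above the second by a median of 0.25, and 1 of the 34 members was lower in it. Nothing in the labels says that replicates came from separate transfections, so p-values measure the spread between these libraries. Of 8 mesenchymal and osteosarcoma markers, 7 were above the minimum (VIM at 45686 to 66974, SPARC at 13193 to 19756 without drug). COL1A2 was near it at 10.2 to 42.0, and BGLAP was below it at 0 to 5.68. Of 10 markers of other cell types, 5 were above the minimum too, with a summed level of 1108 to 1916 for the list. Among them KRT8 was at 793 to 1338 and RBFOX3 at 128.5 to 370.3, while CD3E was at 0.

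Without drug, the targeted genes were lower in their own knockouts on the same-total scale. In deposited values, which are on the spike-in scale, untreated NUP93-KO libraries held NUP93 at 1395 and 1432, where NONT held it at 1753 and 2489. Untreated EXOSC5-KO libraries held EXOSC5 at 216 and 148 in deposited values, where NONT held it at 299 and 481. On the same-total scale the log2 differences were −0.45 ± 0.09 (SE, limma adjusted p = 0.0498) and −1.11 ± 0.19 (SE, adjusted p = 0.00808). On the spike-in scale neither passed the threshold. A lower NUP93 share was not limited to NUP93-KO. Untreated EXOSC5-KO differed from NONT in NUP93 by −0.32 ± 0.09 (SE, limma adjusted p = 0.0776) on the same-total scale, which did not pass. The difference in NUP93 between the knockouts was not tested. EXOSC5 in untreated NUP93-KO differed from NONT by 0.10 ± 0.19 (SE, adjusted p = 0.961) on the same-total scale. After triptolide the NUP93-KO libraries held NUP93 at 801 and 1019 on the spike-in scale and the NONT libraries at 1007 and 899, which overlap. On that scale EXOSC5 was at 75.2 and 102 in EXOSC5-KO and at 266 and 208 in NONT.

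Transport receptor genes were mostly expressed above the typical gene in untreated U2OS cells. Values per kb of canonical transcript were compared over the 6 untreated libraries, and 30 of the 34 genes lay above the median tested gene (101 per kb). The highest were RAN, the GTPase itself, with a median of 5016 per kb (4722 to 7050), and KPNA2, the importin alpha typical of dividing cells, with a median of 4979 per kb (4492 to 7920). RAN exceeded KPNA2 in 3 of the 6 libraries, so their order is not resolved. RANBP1 followed at 3088 per kb (2881 to 4402), and its range lay below all KPNA2 values. ALYREF at 2645 per kb, CSE1L, the exportin that recycles importin alpha, at 1900 per kb and KPNB1 at 1453 per kb led the mRNA export factors, the exportins and the importin beta family.

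The importin alpha paralogs spanned the widest range. KPNA5 was the lowest of the 34 genes at 15.3 per kb (13.4 to 24.3), below XPO4 at 44.5 per kb (36.4 to 51.7) in all 6 libraries. The order per kb assumes that the canonical transcript, 11288 bases long for KPNA5, is the one expressed. Without division by length, NXT2 had a lower untreated mean (173) than KPNA5 (185). KPNA4 at 63.2 per kb and NXT2 at 65.9 per kb were the other members under the median gene. NXT1 was at 331 per kb (289 to 372), with no overlap with NXT2 (59.2 to 75.3). Of the 33 neighbouring pairs in this order, 14 kept their order in every untreated library and 28 had overlapping ranges, so most neighbours did not differ beyond their spread. Values of RAN and NUTF2 are uncertain because 9 and 7 annotated pseudogenes carry their names and reads may be shared with them. IPO4 had the same values in every library as a second gene identifier, so its reads may be split between identical copies, and DDX39B lies in a region with alternative haplotypes.

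**Figure D1:**
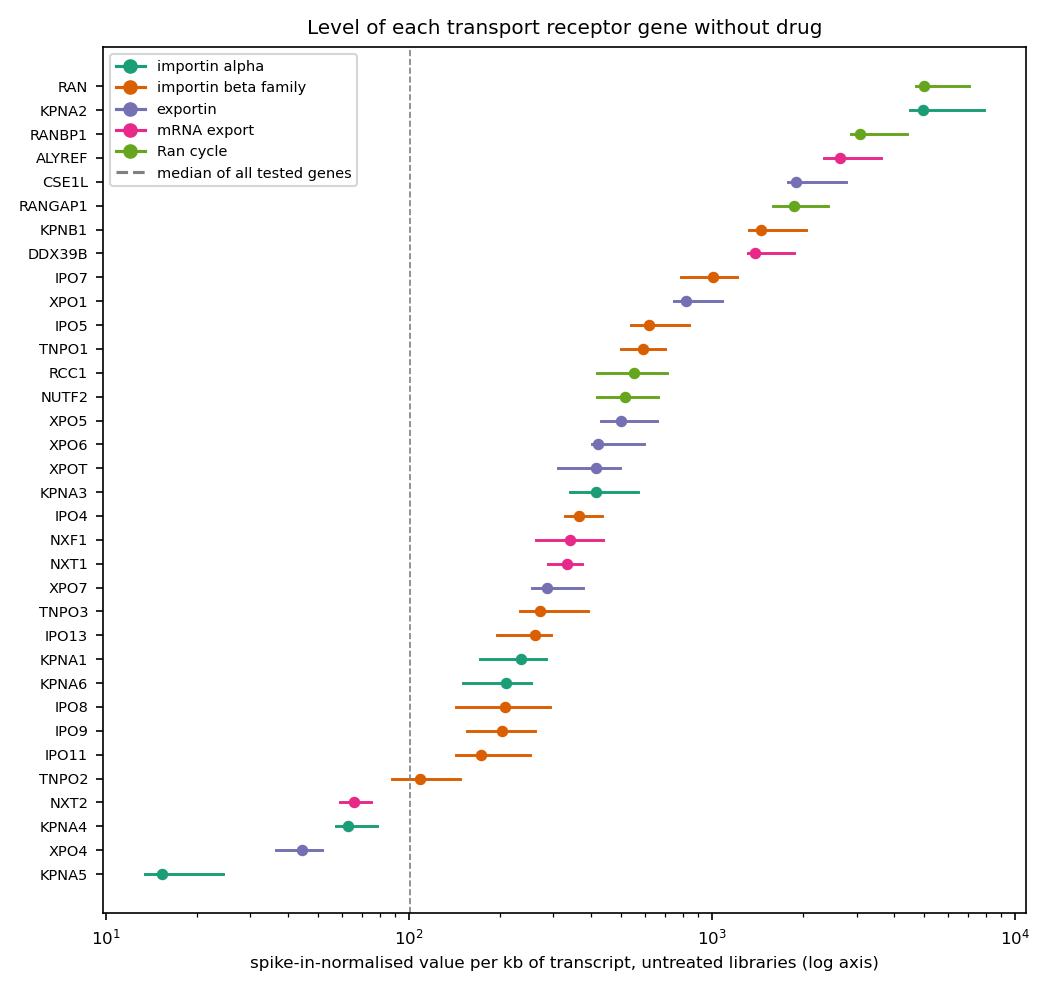
Level of the 34 genes without drug, as spike-in-normalized value per kb of transcript on a log axis, with the median (point) and the range (line) over 6 untreated libraries, colored by role. RAN and KPNA2 stand at the top near 5000 per kb, KPNA5 at the bottom at 15.3, and the dashed line marks the median tested gene at 101.

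To ask what happens to the transport machinery when transcription stops, treated libraries were compared with untreated ones in each genotype. On the spike-in scale all 34 genes were lower after triptolide in NONT, 25 of them in NUP93-KO, 27 of them in EXOSC5-KO, and none was called higher. The shares of all tested genes called lower were 90.0%, 55.1% and 64.3%. The median log2 change of the members was −1.44 (NONT), −0.87 (NUP93-KO) and −0.94 (EXOSC5-KO), against −1.62, −0.92 and −1.08 over all tested genes. The treated pair lay wholly below the untreated pair for 34, 30 and 33 members, against 94.8%, 79.1% and 88.0% of tested genes. In NUP93-KO, IPO9, TNPO2 and RANBP1 overlapped and NUTF2 was higher in both treated libraries, as were 1.81% of tested genes. In EXOSC5-KO only KPNA5 overlapped. These calls depended on the scaling. With the mitochondrial sum held equal, which uses no spike-in, 32, 32 and 31 members were lower (81.2%, 76.5% and 75.1% of tested genes), and with median-of-ratios scaling 6, 8 and 10 were (30.3%, 29.7% and 28.7%).

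The members separated when each was read as a share of the mRNA pool. With equal totals NONT had 12 members lower and 8 higher, NUP93-KO had 14 lower and 7 higher, and EXOSC5-KO had 16 lower and 7 higher. Of all tested genes, 38.2% were lower and 15.2% higher in NONT; for NUP93-KO these shares were 39.3% and 13.9%, for EXOSC5-KO 36.7% and 14.7%. The median tested gene shifted by −0.32, −0.36 and −0.29 on this scale, and the median member by −0.11, −0.30 and −0.15. Median-of-ratios scaling, which centers the typical gene, changed the lower and higher members to 6 and 16 (NONT), 8 and 12 (NUP93-KO) and 10 and 13 (EXOSC5-KO), where 27.2%, 26.7% and 26.1% of tested genes were higher. In all 3 genotypes 11 members were lower and 6 higher, beside 30.4% and 9.35% of tested genes, 7 were called in none, beside 33.0%, and none was called in opposite directions.

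**Figure D2:**
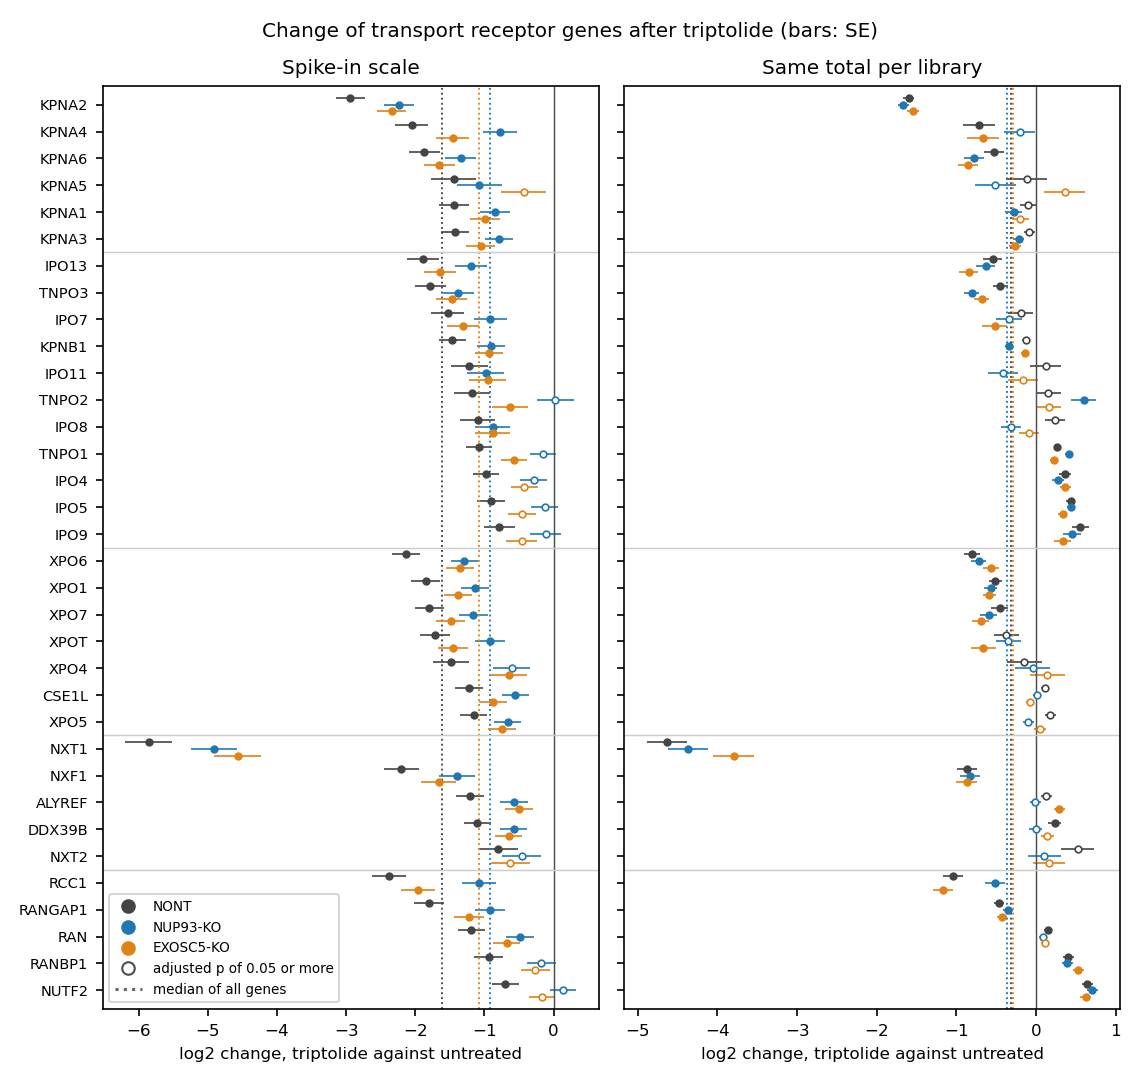
Log2 change after triptolide of the 34 genes, grouped by role, on the spike-in scale (left) and with the same total per library (right), with SE bars from limma. Filled points passed an adjusted p of 0.05, dotted lines mark the median tested gene of each genotype, and NXT1 lies far left of all others on both scales while NUTF2, RANBP1, IPO9, IPO5, IPO4 and TNPO1 lie right of 0 on the same-total scale.

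The deepest fall was that of NXT1, the small partner that NXF1 needs to carry mRNA. NXT1 (ENSG00000132661) lies at chr20:23350791-23354771 and has 2 exons, of which 1 is coding. Its value was 345 and 395 in untreated NONT and 5.41 and 5.36 after triptolide. The NUP93-KO pair went from 307 and 308 down to 9.58 and 8.91, and the EXOSC5-KO pair from 359 and 375 down to 15.0 and 14.0. No treated library came near an untreated one, and the remaining values rested on about 8.92 to 17.0 reads per library.

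On the spike-in scale the NXT1 log2 change was −5.86 ± 0.34 (SE) (NONT), −4.91 ± 0.34 (NUP93-KO) and −4.57 ± 0.34 (EXOSC5-KO). As a share of the pool it fell 24.8-fold (NONT), 20.7-fold (NUP93-KO) and 13.9-fold (EXOSC5-KO) on the log2(value + 1) scale, which understates the change of low values. These are log2 changes of −4.63 ± 0.26 (SE), −4.37 ± 0.26 and −3.80 ± 0.26, with limma adjusted p-values of 2.33e-07, 4.49e-07 and 1.25e-06. NXT1 thus stood at the 2.45th, 2.08th and 3.28th percentile of tested genes.

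The paralog NXT2, picked here after its values were seen, had far smaller changes on the spike-in scale. It was at 154 and 196 without drug and 111 and 87.9 after triptolide in NONT. The NUP93-KO libraries had 187 and 179 before and 121 and 145 after the drug, and the EXOSC5-KO libraries had 160 and 164 before and 87.4 and 126 after. Treated values lay below untreated ones in each genotype. Its same-total log2 change was 0.52 ± 0.20 (SE, limma adjusted p = 0.0531) (NONT), 0.10 ± 0.20 (NUP93-KO) and 0.16 ± 0.20 (EXOSC5-KO). Their heterodimer partner NXF1 fell by 0.87, 0.83 and 0.87 on the same scale. ALYREF, the adaptor that recruits NXF1, had same-total changes of 0.12, −0.01 and 0.29 and passed the test in EXOSC5-KO. The helicase DDX39B had changes of 0.24, −0.01 and 0.14 and passed in NONT.

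**Figure D3:**
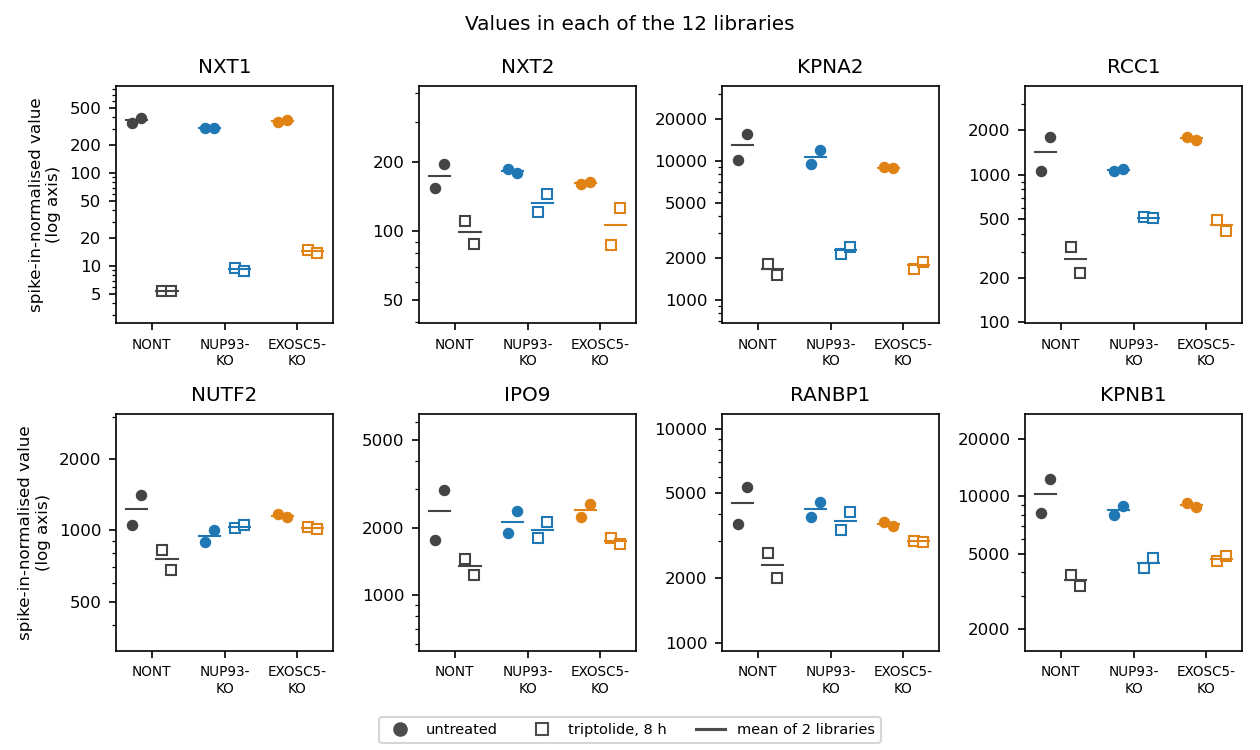
Spike-in-normalized value of 8 members in each of the 12 libraries on log axes, untreated as filled circles and triptolide as open squares, with the mean of 2 libraries as a line. NXT1 falls from over 300 to 15.0 or less in every genotype, NXT2 stays between 87.4 and 196, and NUTF2 in NUP93-KO is at 888 and 999 without drug and 1022 and 1050 with it.

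NXT1 is the only one of the 34 genes with a single coding exon, a feature the choice of genes did not use. Among tested genes with a canonical coding transcript, 783 of 12989 (6.03%) have 1 coding exon, and their median same-total change was −1.75 (NONT), −1.81 (NUP93-KO) and −1.47 (EXOSC5-KO). The median of the other 12206 genes was −0.28, −0.32 and −0.26. NXT1 was therefore deeper than the median of its own class too. The share of single-coding-exon genes below 0 was 85.8%, 86.2% and 83.3%, against 61.4%, 63.4% and 61.04% of the rest. These are descriptions over genes, which are not independent replicates, and carry no p-value.

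**Figure D4:**
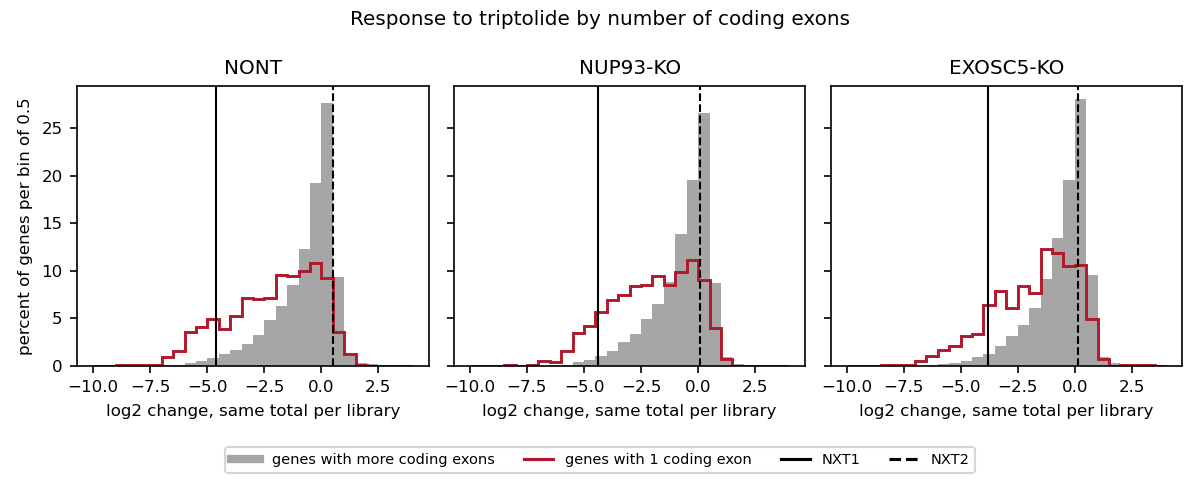
Percent of genes per bin of 0.5 in the same-total log2 change after triptolide, for the 783 genes with 1 coding exon (red outline) and the 12206 with more (gray), in each genotype. The red outlines extend further left than the gray, NXT1 (solid line) lies in their left tail at −4.63, −4.37 and −3.80, and NXT2 (dashed line) lies right of 0.

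Across the 34 members, transcript features followed the response only loosely. Spearman's rho of the same-total change in NONT was 0.12 with the number of coding exons, 0.048 with transcript length, 0.15 with 3′ UTR length, 0.10 with the number of ATTTA motifs and −0.16 with GC content. Over 12989 genes these values were 0.19, −0.18, −0.16, −0.12 and 0.0039. The 13 members with TATTTAT had a median change of −0.12 (NONT), −0.28 (NUP93-KO) and −0.20 (EXOSC5-KO). The 21 without it had medians of 0.12, −0.31 and −0.09.

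Among the importin alpha genes, which share the classical import signal as cargo, KPNA2 fell most. KPNA2 (ENSG00000182481, chr17:68035636-68047364, 11 exons) was at 10172 and 15657 in untreated NONT and at 1815 and 1494 after triptolide. The NUP93-KO libraries had 9515 and 11910 before and 2147 and 2381 after the drug. The EXOSC5-KO libraries had 8967 and 8881 before and 1669 and 1862 after. The groups were far apart in each genotype. Its share of the pool fell 3.03-fold, 3.17-fold and 2.92-fold, or log2 changes of −1.60 ± 0.07 (SE), −1.67 ± 0.07 and −1.55 ± 0.07, with limma adjusted p-values of 6.96e-08, 8.28e-08 and 1.28e-07. KPNA2 stood at percentiles 22.0, 20.6 and 20.2 of tested genes, so many other genes fell further.

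KPNA6 was lower in all 3 genotypes too, with same-total changes of −0.53, −0.77 and −0.86. KPNA4 was lower in NONT (−0.72) and EXOSC5-KO (−0.67) and had a value of −0.21 in NUP93-KO. KPNA3 was lower in NUP93-KO (−0.22) and EXOSC5-KO (−0.26), and KPNA1 in NUP93-KO (−0.28). KPNA5 passed in none, at −0.12, −0.51 and 0.36. No importin alpha gene was called higher in any genotype, where 15.2% (NONT), 13.9% (NUP93-KO) and 14.7% (EXOSC5-KO) of all tested genes were, so few would be among 6. The median of the 6 was −0.32 (NONT), −0.40 (NUP93-KO) and −0.46 (EXOSC5-KO), beside −0.32, −0.36 and −0.29 over all tested genes.

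The importin beta family moved both ways. IPO4, IPO5, IPO9 and TNPO1 gained share in all 3 genotypes, while IPO13 and TNPO3 lost it. IPO9 (ENSG00000198700, chr1:201829149-201884291, 24 exons), an importin known to carry histones, was at 1771 and 2978 in untreated NONT and 1452 and 1226 after triptolide. The NUP93-KO values were 1888 and 2376 before and 1796 and 2130 after the drug, and the EXOSC5-KO values 2242 and 2562 before and 1800 and 1684 after. Treated libraries lay below untreated ones in NONT and EXOSC5-KO and overlapped in NUP93-KO. On the spike-in scale IPO9 was called lower in NONT (limma adjusted p = 0.0041). In EXOSC5-KO it was not, at −0.46 ± 0.23 (SE, adjusted p = 0.0832). Its same-total change was 0.56 ± 0.11 (SE, limma adjusted p = 0.00165), 0.45 ± 0.11 (adjusted p = 0.00566) and 0.33 ± 0.11 (adjusted p = 0.0283). The NUP93-KO call was lost without the first untreated NUP93-KO replicate (0.36, adjusted p = 0.0520). The EXOSC5-KO call was lost without the first untreated replicate (0.18, adjusted p = 0.236) or either treated one (0.28, adjusted p = 0.141, and 0.38, adjusted p = 0.0539).

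IPO5, which imports ribosomal proteins and other cargo, changed by 0.43, 0.44 and 0.33, and IPO4 by 0.36, 0.28 and 0.37. TNPO1, the receptor for the PY signal of hnRNP proteins, changed by 0.27, 0.41 and 0.23, while its close paralog TNPO2 passed only in NUP93-KO, with values of 0.15, 0.60 and 0.16. TNPO3, which imports SR splicing factors, changed by −0.45, −0.81 and −0.68. IPO13 changed by −0.55, −0.63 and −0.85. KPNB1, the partner of importin alpha, was at 8139 and 12336 in untreated NONT and at 3885 and 3400 after triptolide. NUP93-KO libraries went from 8020 and 8850 to 4210 and 4770, and EXOSC5-KO libraries from 9179 and 8751 to 4590 and 4834. Its share changed by −0.12, −0.34 and −0.13 and passed in both knockouts. IPO7 passed in EXOSC5-KO (−0.52), and IPO8 and IPO11 in no genotype.

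Of the 7 exportins, 3 (NONT), 3 (NUP93-KO) and 4 (EXOSC5-KO) were lower as a share of the pool. Of all tested genes 38.2%, 39.3% and 36.7% were. No exportin was called higher in any genotype, where 15.2%, 13.9% and 14.7% of all tested genes were, so few would be among 7. XPO1 (CRM1), the receptor for the leucine-rich export signal, changed by −0.51, −0.57 and −0.59 and passed in all 3. XPO6, the actin exportin, changed by −0.80, −0.72 and −0.56 and XPO7 by −0.46, −0.60 and −0.70, also in all 3. XPOT, which exports tRNA, passed in EXOSC5-KO only (−0.66), with −0.38 and −0.35 in the other genotypes. XPO4 and XPO5, the latter the exporter of microRNA precursors, passed in none. CSE1L was at 6512 and 9810 in untreated NONT and at 3658 and 3204 after triptolide. Values moved in NUP93-KO libraries from 6345 and 7275 to 4525 and 4751, and EXOSC5-KO libraries from 6887 and 6599 to 3565 and 3796. Its same-total changes of 0.12, 0.02 and −0.08 did not pass. CSE1L recycles KPNA2, whose share fell.

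The Ran cycle genes moved both ways. RCC1, the nuclear exchange factor, and RANGAP1, the cytoplasmic GTPase activator, lost share in all 3 genotypes, while RANBP1 and NUTF2 gained it. RCC1 (ENSG00000180198, chr1:28505943-28539300, 13 exons) was at 1066 and 1806 in untreated NONT and at 323 and 218 after triptolide. NUP93-KO libraries went from 1067 and 1097 to 515 and 508, and EXOSC5-KO libraries from 1815 and 1715 to 492 and 415. Its same-total change was −1.05 ± 0.13 (SE), −0.51 ± 0.13 and −1.17 ± 0.13, with limma adjusted p-values of 4.88e-05, 0.00573 and 2.69e-05. The NUP93-KO value was −0.18 (adjusted p = 0.251) with median-of-ratios scaling. RANGAP1 changed by −0.46, −0.36 and −0.43.

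NUTF2 (ENSG00000102898, chr16:67846882-67872567, 5 exons), the carrier that brings RAN back to the nucleus, rose most as a share of the pool. It was at 1056 and 1408 in untreated NONT and at 828 and 683 after triptolide. Values moved in NUP93-KO libraries from 888 and 999 to 1022 and 1050, and EXOSC5-KO libraries from 1172 and 1134 to 1036 and 1013. Its mRNA on the spike-in scale was thus lower in NONT and slightly higher in both treated NUP93-KO libraries, where the log2 change of 0.14 ± 0.19 (SE) had a limma adjusted p of 0.570. Its share rose 1.56-fold, 1.63-fold and 1.54-fold, with log2 changes of 0.64 ± 0.07 (SE), 0.71 ± 0.07 and 0.62 ± 0.07 and limma adjusted p-values of 2.63e-05, 1.52e-05 and 4.00e-05. It stood at the 94.4th, 95.9th and 93.6th percentile of tested genes.

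RANBP1 (ENSG00000099901, chr22:20115938-20127355, 6 exons) was at 3608 and 5375 in untreated NONT and at 2629 and 2014 after triptolide. NUP93-KO libraries went from 3883 and 4555 to 3372 and 4095, and EXOSC5-KO libraries from 3657 and 3518 to 3004 and 2972. Its share rose by 0.40 ± 0.07 (SE), 0.39 ± 0.07 and 0.53 ± 0.07 on the log2 scale, with limma adjusted p-values of 0.00052, 0.000662 and 8.88e-05. RAN itself was at 12261 and 17442 in untreated NONT and at 6788 and 6060 after triptolide. Values moved in NUP93-KO libraries from 12151 and 14175 to 9315 and 9446, and EXOSC5-KO libraries from 12557 and 11681 to 7606 and 7509. Its share changed by 0.15, 0.08 and 0.11 and passed in NONT alone (adjusted p = 0.0234). RAN was called lower on the spike-in scale in each genotype.

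Without drug, the question was whether loss of a pore protein or an exosome subunit changed the transport genes. In NUP93-KO none of the 34 was called by limma on the spike-in scale, where 0.0217% of tested genes were. At an unadjusted p under 0.05 there were 0 members, beside 338 lower and 242 higher of 13811 tested genes. With equal totals none was called, against 0.963% of genes. There 5 members had an unadjusted p under 0.05, all lower, beside 553 lower and 919 higher of 13811 tested genes. NUTF2 was among the lowest, at −0.26 ± 0.07 (SE, adjusted p = 0.165), and KPNB1 was at −0.14 ± 0.05 (SE, adjusted p = 0.324). These p-values do not show that the transport genes were alike in NUP93-KO and NONT.

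In EXOSC5-KO, 5 of the most abundant members took a smaller share of the pool than in NONT. None of the 34 was called on the spike-in scale, where 0.521% of genes were. There 1 member was lower at an unadjusted p under 0.05, as were 340 of 13811 tested genes. On the same-total scale 5 were lower and 0 higher, where 4.87% of genes were called and 2.09% were called lower. In units per 1000000 of the gene total, KPNA2 was at 623 and 662, where NONT had 899 and 952, and ALYREF at 189 and 192, where NONT had 245 and 241. RANBP1 was at 254 and 262 against 319 and 327, RAN at 872 and 871 against 1083 and 1061, and CSE1L at 478 and 492 against 575 and 596. The groups did not overlap for these 5 genes. In all, both EXOSC5-KO libraries lay below both NONT libraries for 13 members and above them for 5, against 22.2% and 31.3% of tested genes. The same-total differences were −0.53 ± 0.07 (SE, limma adjusted p = 0.00291) for KPNA2, −0.35 ± 0.07 (adjusted p = 0.0171) for ALYREF, −0.32 ± 0.07 (adjusted p = 0.0225) for RANBP1, −0.30 ± 0.05 (adjusted p = 0.00683) for RAN and −0.27 ± 0.05 (adjusted p = 0.0134) for CSE1L.

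KPNA2 passed without any single library of this comparison, while the number of members called fell to between 1 and 2. It was 1 without either untreated EXOSC5-KO replicate (beside 0.869% and 0.883% of tested genes called lower) or the first NONT replicate (0.760%), 2 without the second NONT replicate (0.739%), and 1 in limma without trend (0.811%). Leaving out libraries also leaves a smaller fit. The 5 genes are 5 of the 7 highest members by level, and RANGAP1 and KPNB1, the others of these 7, had differences of −0.10 and −0.19 (adjusted p = 0.468 and 0.0617). RCC1 had the highest value, 0.32 ± 0.13 (SE, adjusted p = 0.195). KPNA2, ALYREF, RANBP1, RAN and CSE1L had differences of −0.13, 0.02, 0.05, −0.04 and −0.12 in NUP93-KO, which shares the NONT libraries.

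**Figure D5:**
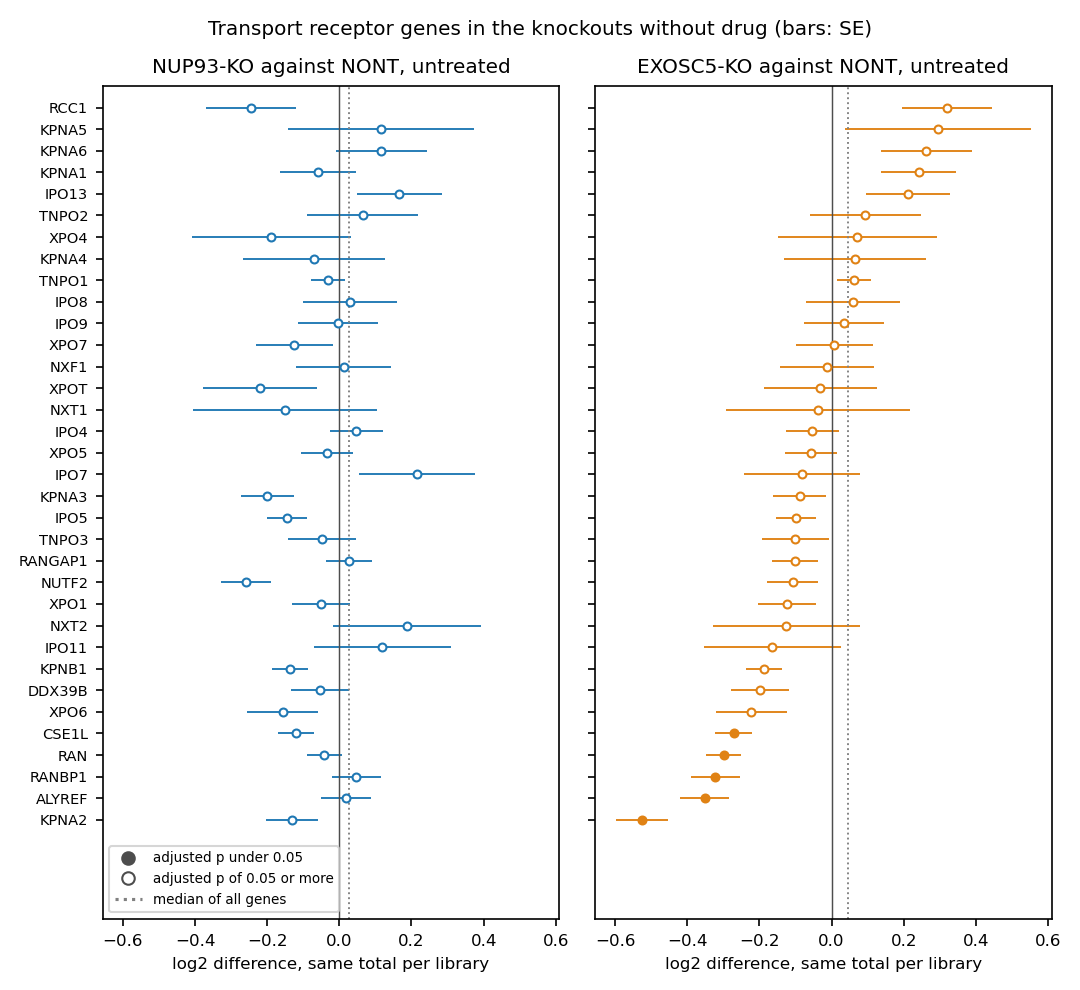
Same-total log2 difference of each knockout from NONT without drug for the 34 genes, with SE bars from limma, in the order of EXOSC5-KO. Filled points passed an adjusted p of 0.05: KPNA2, ALYREF, RANBP1, RAN and CSE1L in EXOSC5-KO and none in NUP93-KO.

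Whether the knockouts changed the response to triptolide was tested as the difference in log2 change from NONT. On the spike-in scale all 34 members had a value above 0 (a smaller loss) in either knockout. Most tested genes did too, with only 7.96% (NUP93-KO) and 10.2% (EXOSC5-KO) of them below 0. The members' medians were 0.69 (NUP93-KO) and 0.46 (EXOSC5-KO), against 0.74 and 0.57 over all tested genes. By limma none was called in either, where 0.775% and 0.333% of genes were. At an unadjusted p under 0.05, 19 and 6 members were above 0, as were 5709 and 3187 of 13811 tested genes. The largest values in NUP93-KO were 1.303 ± 0.35 (SE, adjusted p = 0.0586) for RCC1, 1.28 for KPNA4 and 1.21 for TNPO2. These counts depended on the NONT libraries. Without the first untreated NONT replicate 30 members (NUP93-KO) and 23 members (EXOSC5-KO) were called, beside 51.0% and 38.2% of tested genes. Without the first treated NONT replicate 6 were called in NUP93-KO, beside 18.0% of tested genes. With an untreated mean of at least 50 it was 4 in NUP93-KO, beside 9.01%.

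As shares of the pool, none was called in either knockout, where 0.0145% and 0.0652% of genes were. In NUP93-KO 4 members had an unadjusted p under 0.05 toward a lower share and 1 toward a higher one. Of 13811 tested genes, 608 and 728 did. In EXOSC5-KO there were 1 and 1 members, beside 447 and 896 genes. NXT1 had a difference of 0.83 ± 0.36 (SE, limma adjusted p = 0.492) in EXOSC5-KO. RCC1 had a difference of 0.53 ± 0.18 (SE, adjusted p = 0.381) in NUP93-KO. Both knockouts were compared with the same NONT libraries, so their differences are not independent.

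Further factors of the same routes were examined as a list of 39 adaptors, TREX and TREX-2 subunits, cap-binding proteins and Ran-binding proteins, of which 34 were tested. As shares of the pool 11 were lower and 6 higher in NONT; NUP93-KO had 12 and 5, EXOSC5-KO 14 and 2, beside the shares of all genes given for that scale above. RANBP6, an importin-like paralog of IPO5, was at 445 and 663 in untreated NONT and at 13.9 and 11.2 after triptolide. NUP93-KO libraries went from 459 and 492 to 20.2 and 24.6, and EXOSC5-KO libraries from 777 and 593 to 33.7 and 42.9. Its same-total changes were −4.05 ± 0.20 (SE), −3.80 ± 0.20 and −3.34 ± 0.20, and it is the only gene of this list with a single coding exon.

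NCBP3, a cap-binding protein, changed by −2.51, −2.69 and −1.50 and PHAX, the adaptor for snRNA export, by −2.09, −2.02 and −1.89, and both passed in all 3 genotypes. PHAX was at 797 and 1153 in untreated NONT and 93.2 and 84.3 after triptolide. On the other side SEM1, a small TREX-2 and proteasome subunit, changed by 0.65, 0.60 and 0.41 and THOC7, a THO subunit, by 0.63, 0.34 and 0.28, passing in all 3. SARNP, a TREX component, changed by 0.45, 0.38 and 0.26 and passed in NONT and NUP93-KO.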

How the data were processed

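Strand-specific libraries of poly(A)-selected RNA were made from counted cells with ERCC spike-in RNA added in proportion to cell number. The authors quantified reads with kallisto 0.46.1 on GRCh38 transcripts, collapsed transcripts to genes through tximport, removed genes that are not protein-coding and scaled each library by a DESeq2 size factor from its ERCC transcripts. The deposited values are therefore a normalized signal per gene and not counts, and an error in a cell count or in the spike-in volume moves every gene of a library together. Only 30.9% to 35.6% of low values were whole multiples of 1 read (tolerance 0.05 read), so whole reads were not recovered and depth is approximate.

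Groups came from the sample labels. Values were analyzed as log2(value + 1) for genes with an untreated mean of at least 10. All 12 libraries entered one limma 3.58.1 fit (R 4.3.3) of 6 group means, with trend in eBayes. Tests were two-sided, Benjamini-Hochberg adjustment ran over 13811 genes and the threshold was 0.05. Fits were made on the deposited scale and with equal gene totals. The code was tested on simulated data. The members and lists were chosen with earlier results of these data known, so counts are set beside those of all genes and no list was tested. Values per library are given for members called in all 3 genotypes with the 3 largest rises and falls, those called in a knockout and the first of each role by level. Exons, 3′ UTRs and coordinates came from GENCODE release 44 (GRCh38) and promoters from RefSeq. The ± values are SEs of the fit. Python 3.11.15 was used for summaries. Alternatives are given at the end. A further marker on the list of other cell types is not reported here.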

Additional observations from a re-analysis of the deposited data

Results flagged for a closer look

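NUTF2 pairs separated in opposite directions between genotypes on the deposited values. Both treated libraries were below both untreated ones in NONT and above them in NUP93-KO. The NUP93-KO change of 0.14 ± 0.19 (SE) did not pass (limma adjusted p = 0.570). Of all tested genes, 94.8% were lower in both treated NONT libraries and 1.81% higher in both treated NUP93-KO ones. NUP93-KO minus NONT came to 0.835 ± 0.272 (SE) in log2 change (limma adjusted p = 0.0695), and on the same-total scale NUTF2 rose in both genotypes.

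CSE1L pairs did so as a share of the pool: both treated libraries were above both untreated ones in NONT and below them in EXOSC5-KO. Its changes of 0.12 (NONT) and −0.08 (EXOSC5-KO) did not pass (limma adjusted p = 0.0754 and 0.210). Of all tested genes, 25.6% were higher in both treated NONT libraries and 49.7% lower in both treated EXOSC5-KO ones. EXOSC5-KO minus NONT came to −0.197 ± 0.0712 (SE) in log2 change (limma adjusted p = 0.419).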

How the results depend on the processing

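Calls of members depended on scaling and on single libraries. On the spike-in scale fewer members were called lower in both knockouts without any single replicate compared, in a smaller fit. With the same mitochondrial sum, members lower after triptolide numbered 32 (NONT), 32 (NUP93-KO) and 31 (EXOSC5-KO). With median of ratios, they numbered 6 (NONT), 8 (NUP93-KO) and 10 (EXOSC5-KO) with 16, 12 and 13 higher; with the same total the lower ones numbered 12, 14 and 16. For EXOSC5-KO against NONT without drug, members were called lower with median of ratios and with the same mitochondrial sum. Those numbers are left out, because the shares of all genes beside them are not given here. In that comparison 5 members were lower with the same total (2.09% of tested genes), against 0 on the spike-in scale. On the same-total scale that number was 1 without trend and 1 to 2 without single replicates. Members with a smaller loss numbered 4 in NUP93-KO with an untreated mean of at least 50, while without single replicates they numbered 0 to 30 (NUP93-KO) and 0 to 23 (EXOSC5-KO). The members' median minus that of all genes after triptolide became −0.025, −0.057 and 0.016 in these genotypes with a pseudocount of 10 and −0.13, −0.16 and −0.095 with no filter. Without single replicates it was 0.14 to 0.26, −0.0058 to 0.11 and 0.089 to 0.19. Without drug it was −0.10 in NUP93-KO with no filter, and without single replicates −0.097 to −0.055 (NUP93-KO) and −0.16 to −0.085 (EXOSC5-KO). The spike-in changes of NUTF2, IPO9 and RANBP1 in NONT reversed to 0.95, 0.87 and 0.72 with median of ratios and 0.64, 0.56 and 0.40 with the same total, and those of IPO9 and RANBP1 in EXOSC5-KO to 0.62 and 0.82 and to 0.33 and 0.53. The same-total change of NXT2 was −7.4e-05 to 0.21 (NUP93-KO) and −0.095 to 0.42 (EXOSC5-KO) without single replicates. Replicate numbers were only shared names: same-numbered deviations correlated at −0.051 to 0.037. With a replicate block no count of members moved by over 1.5 times. Those counts are left out too, because the shares of all tested genes with this block are not given here. Rescaling works by construction on the whole library, and other causes were not tested. Depth limits NXT1 most, which rested on 8.92 to 17.0 reads after triptolide.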
